A study of Mus musculus with 8 samples.

Results

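The 40 genes described here drive or accompany cell division. They comprise the proliferation marker Mki67, replication and nucleotide enzymes, cyclins and their kinases, the MCM helicase with its loading factors, the E2F transcription factors and regulators of mitosis. They were chosen by name from textbook knowledge, with earlier results of these data known. Each was followed over its locus, the GENCODE gene body with 3 kb on each side, among 21938 protein-coding gene loci. All 40 held enough peak coverage to be tested, as did 17035 of all loci. The cortex of 4 sham and 4 BCAS mice was assayed by ATAC-seq, in which the Tn5 transposase cuts and tags accessible DNA, with a separate library for every mouse. All were male C57BL/6 mice of 14 weeks. Bilateral common carotid artery stenosis (BCAS), a model of chronic cerebral hypoperfusion, was made with a microcoil of 0.16 mm inner diameter on the right and of 0.18 mm on the left carotid artery, sham mice had their arteries exposed without coils, and the tissue was taken 3 weeks later. The labels name the right cortex, whereas the study's quality table names the cortex of the whole brain, so the side sampled is uncertain. The question asked of these loci was whether chromatin at proliferation genes was more open after hypoperfusion.

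A cell that enters the cycle first makes D-type cyclins, which activate the kinases CDK4 and CDK6. These release E2F factors from the retinoblastoma protein, E2F factors switch on the genes of DNA replication, and B-type cyclins with CDK1 then start mitosis. In the adult cortex most neurons have left the cycle for good, while microglia and oligodendrocyte precursors can still divide. Promoters of cycle genes often carry E2F sites or the CHR element beside CCAAT boxes, and such promoters can be accessible in cells that do not divide.

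The deposited peak lists held 107391 to 144988 peaks in sham and 119565 to 160720 in BCAS libraries on 21 chromosomes, covering 44.5 to 60.8 Mb and 48.9 to 66.3 Mb. The fewest peaks were in sham 1 and the most in BCAS 1. By the GC content of their reads, sham 1 to 3 and BCAS 1 formed a higher class and sham 4 and BCAS 2 to 4 a lower class. Covered lengths are therefore given per library after scaling to the total length covered by its peaks (scaled bp). Read counts are not part of these lists, and the depth under any one peak is therefore unknown. Marker loci of excitatory neurons, astrocytes and oligodendrocytes were covered well enough to be tested at 7 of 8, 8 of 8 and 8 of 8 genes, while the lymphocyte markers Ms4a1 and Cd8a, and of 8 monocyte and neutrophil markers Ly6c2, Ly6g, S100a9 and Cd177, had no peak in any library. In bulk tissue, more accessible DNA in a given cell type and more cells of that type cannot be told apart.

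The promoters of 3 proliferation genes are printed first, because they show the sequence on which cycle genes are open in this tissue in both groups. Each line gives the 250 bases before the annotated start on the strand of the gene, from the RefSeq promoter table (GRCm38.p6). Mki67 encodes the proliferation antigen Ki-67 (chr7:135716380-135716629, minus strand), Mcm2 a helicase subunit (chr6:88898781-88899030, minus strand), and Mcm5 another subunit (chr8:75109259-75109508, plus strand). Capitals mark letters searched for, on either strand, namely CCAAT (NF-Y), TTTGAA (CHR), the E2F forms TTTGGCGC, TTTCGCGC, TTTCCCGC and TTTGCCGC, the PU.1 form GAGGAAGT, and GGAAGT, the core shared by ETS factors, which lies inside the PU.1 form and was added after the sequences of gained regions had been seen.
Mki67 promoter: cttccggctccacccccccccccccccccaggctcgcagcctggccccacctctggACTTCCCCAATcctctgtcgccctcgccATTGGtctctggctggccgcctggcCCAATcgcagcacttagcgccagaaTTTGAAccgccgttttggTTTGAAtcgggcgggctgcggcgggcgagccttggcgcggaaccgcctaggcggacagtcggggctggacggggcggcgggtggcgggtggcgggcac
Mcm2 promoter: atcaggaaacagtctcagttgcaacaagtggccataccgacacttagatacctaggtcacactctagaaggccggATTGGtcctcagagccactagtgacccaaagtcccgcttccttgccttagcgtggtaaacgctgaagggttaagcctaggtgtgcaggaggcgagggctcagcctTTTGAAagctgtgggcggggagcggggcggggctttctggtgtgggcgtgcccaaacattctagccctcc
Mcm5 promoter: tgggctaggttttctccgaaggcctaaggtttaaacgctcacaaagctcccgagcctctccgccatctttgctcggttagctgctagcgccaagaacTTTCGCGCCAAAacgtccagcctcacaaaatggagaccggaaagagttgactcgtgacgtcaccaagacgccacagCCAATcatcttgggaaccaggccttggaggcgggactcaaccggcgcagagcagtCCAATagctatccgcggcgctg
The Mki67 and Mcm2 promoters held both CCAAT and the CHR letters, and the Mcm5 promoter held CCAAT and E2F letters. The table had promoters for 32 of the 40 genes and none for Ccna2, Ccnd1, Ccnd2, Ccne2, Mcm4, E2f4, E2f5 and Aurkb. An E2F form was found in 8 of the 32 (25.0%), at Cdk1, Cdk2, Mcm5, Mcm6, Mcm7, E2f3, E2f7 and Cdc6, against 2.41% of 16522 promoters. CCAAT was found in 68.75% against 36.02%, the CHR letters in 25.0% against 14.17%, and GGAAGT in 18.75% against 20.94%. The PU.1 form was found in 0 of the 32, against 2.22% of all promoters. These matches describe letters in a window and not binding.

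Proliferation genes had open promoters in the cortex of both groups. A peak lay at 39 to 40 of the 40 loci in every library, the exception being Aurkb, the kinase of the chromosomal passenger complex, which had no peak in sham 1 and BCAS 4. Within 1 kb of the start of the gene model, 33, 37, 38 and 37 of the 40 genes had a peak in sham 1 to 4, and 40, 37, 39 and 36 had one in BCAS 1 to 4. The fewest were in sham 1, which also had the fewest peaks, and all 40 were in BCAS 1, which had the most. In all 8 libraries together, 33 of the 40 genes (82.5%) had such a peak, against 58.85% of 21938 genes. The other 7 were Ccnd1 and Ccnd3 (7 libraries each), Ccnd2 and Aurkb (6 each), E2f2 (3), Cdk6 and Tk1 (2 each), which include the 3 D-type cyclins and their partner Cdk6. Measured from any annotated transcript start, 36 of the 40 had a region centred within 1 kb in all 8 libraries, and Ccnd1, E2f2, Aurkb and Tk1 did not.

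Most of these promoter peaks were among the strongest of their library. Promoter peaks of other genes were not ranked, so whether high ranks are particular to these genes was not tested. Ranked by the authors' fold enrichment within its own list, the promoter peak of Mki67 stood at a median percentile of 96.2 (91.8 to 98.7), so that over 90% of peaks in every list were weaker. Top2a, which encodes topoisomerase II alpha, stood at 92.4 (87.8 to 98.3), Pcna, the sliding clamp of DNA polymerase, at 98.2 (97.7 to 98.8), Ccnb1, the mitotic cyclin B1, at 98.2 (94.1 to 98.9), and Cdk1, its kinase, at 99.2 (98.7 to 99.5). Mcm2 was lower, at 63.8 (59.0 to 73.7). The median was above the 90th percentile for 25 of the 40 genes. Lower medians were found for Ccnd1 (34.4), Ccnd2 (27.0) and Ccnd3 (20.5) over the 6 or 7 libraries with a peak, for Aurkb (23.0, 6 libraries), Tk1 (25.1, 2 libraries), E2f2 (39.7, 3 libraries) and Cdk6 (1.5, 2 libraries), the last being the lowest of the 40.

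**Figure D1:**
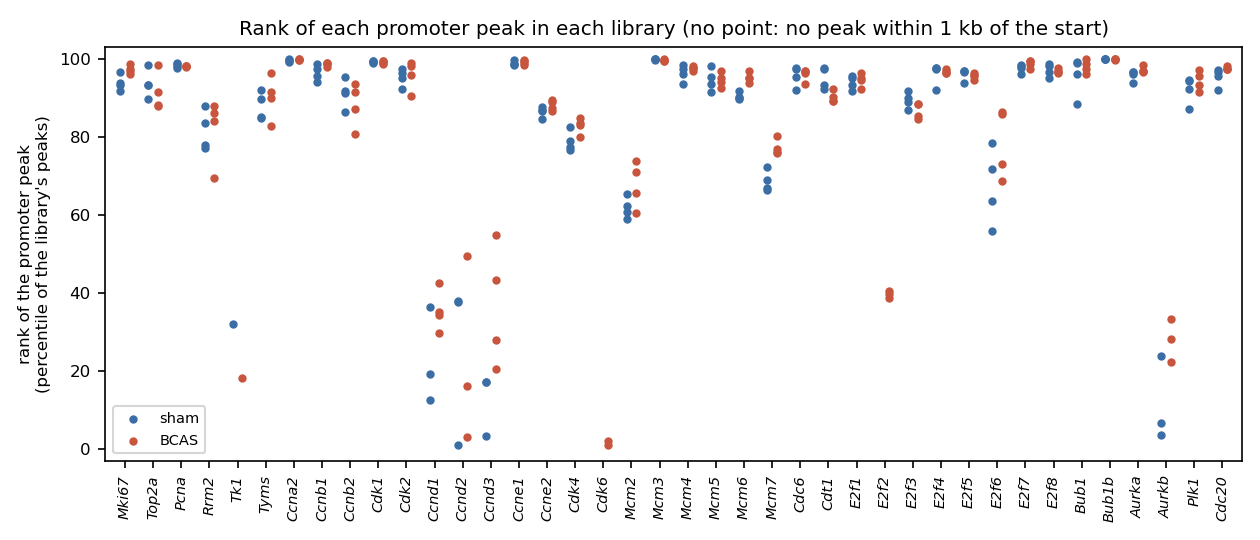
Rank of the strongest peak within 1 kb of the start of each of the 40 genes (vertical axis, percentile among all peaks of that library by fold enrichment), with 4 sham (blue) and 4 BCAS (red) libraries as points and no point where no peak was called. Mki67 sits between 91.8 and 98.7, while Tk1, Ccnd1, Ccnd2, Ccnd3, Cdk6, E2f2 and Aurkb lie lowest and lack points in some libraries.

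At 6 textbook proliferation markers, the group means of covered length differed by less than the SD within either group. At Mki67 (ENSMUSG00000031004.8, chr7:135689784-135716361, minus strand) the scaled length was 840, 1033, 915 and 532 bp in sham 1 to 4 and 450, 775, 915 and 1179 bp in BCAS 1 to 4. The groups overlapped fully, and the group means were 830 ± 214 and 830 ± 303 bp (SD, n = 4 each). The log2 difference of BCAS minus sham was -0.03 (SE 0.21, limma with Benjamini-Hochberg adjustment over all tested genes, adjusted p = 0.979). The locus held 2 regions, of which the promoter had a peak in all 8 libraries and the other, in an exon 16795 bp from the start, in 3 of 4 libraries of each group, lacking in sham 4 and BCAS 1. Without sham 2, sham 3 or BCAS 1 the log2 difference at Mki67 turned positive (0.07, 0.02 and 0.18).

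Top2a (ENSMUSG00000020914.17, chr11:98992943-99024189, minus strand) had a single region, its promoter. Its scaled length was 610, 497, 413 and 496 bp in sham and 394, 529, 510 and 502 bp in BCAS (log2 difference -0.04, SE 0.18, limma adjusted p = 0.963). The highest value was in sham 1 and the lowest in BCAS 1, with the other 6 libraries between. Pcna (ENSMUSG00000027342.14, chr2:132249162-132253314, minus strand) was at 1655, 1418, 1289 and 1574 bp in sham and 1214, 1500, 1538 and 1492 bp in BCAS (-0.04, SE 0.12, limma adjusted p = 0.943). BCAS 1 lay below all other libraries there, although before scaling its length, 1522 bp, was the longest. Ccnb1 (ENSMUSG00000041431.16, chr13:100778650-100786570, minus strand) was at 1164, 1041, 879 and 1391 bp in sham and 846, 1233, 1108 and 1276 bp in BCAS (log2 difference -0.001, SE 0.15, limma adjusted p = 0.998). The loci of Pcna and Ccnb1 also take in a neighbor's promoter. Before scaling, the start of Tmem230 held a mean of 471 bp in sham and 498 bp in BCAS, that of Pcna 950 and 965 bp. At Ccnb1, the start of Cenph held a mean of 511 bp in sham and 678 bp in BCAS, that of Ccnb1 558 and 541.5 bp.

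Cdk1 (ENSMUSG00000019942.13, chr10:69335146-69352938, minus strand) was at 1946, 1632, 1393 and 1697 bp in sham and 1587, 1451, 1739 and 1589 bp in BCAS (log2 difference -0.05, SE 0.12, limma adjusted p = 0.920). Most of this length lay across the far end of the gene, where a region held a mean of 1035 bp in sham and 1000 bp in BCAS before scaling. The region at the start of Cdk1 held 501 and 588 bp. Mcm2 (ENSMUSG00000002870.8, chr6:88883474-88898780, minus strand) was at 721, 985, 765 and 807 bp in sham and 786, 889, 993 and 832 bp in BCAS (0.08, SE 0.14, limma adjusted p = 0.893). At each of these 6 markers the groups overlapped. The sign of the difference at Mki67, Top2a, Pcna, Ccnb1 and Cdk1 was not stable to the processing, since it turned positive at all 5 when lengths were not scaled to the library's total (0.03, 0.02, 0.04, 0.07 and 0.03), whereas Mcm2 stayed positive.

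**Figure D2:**
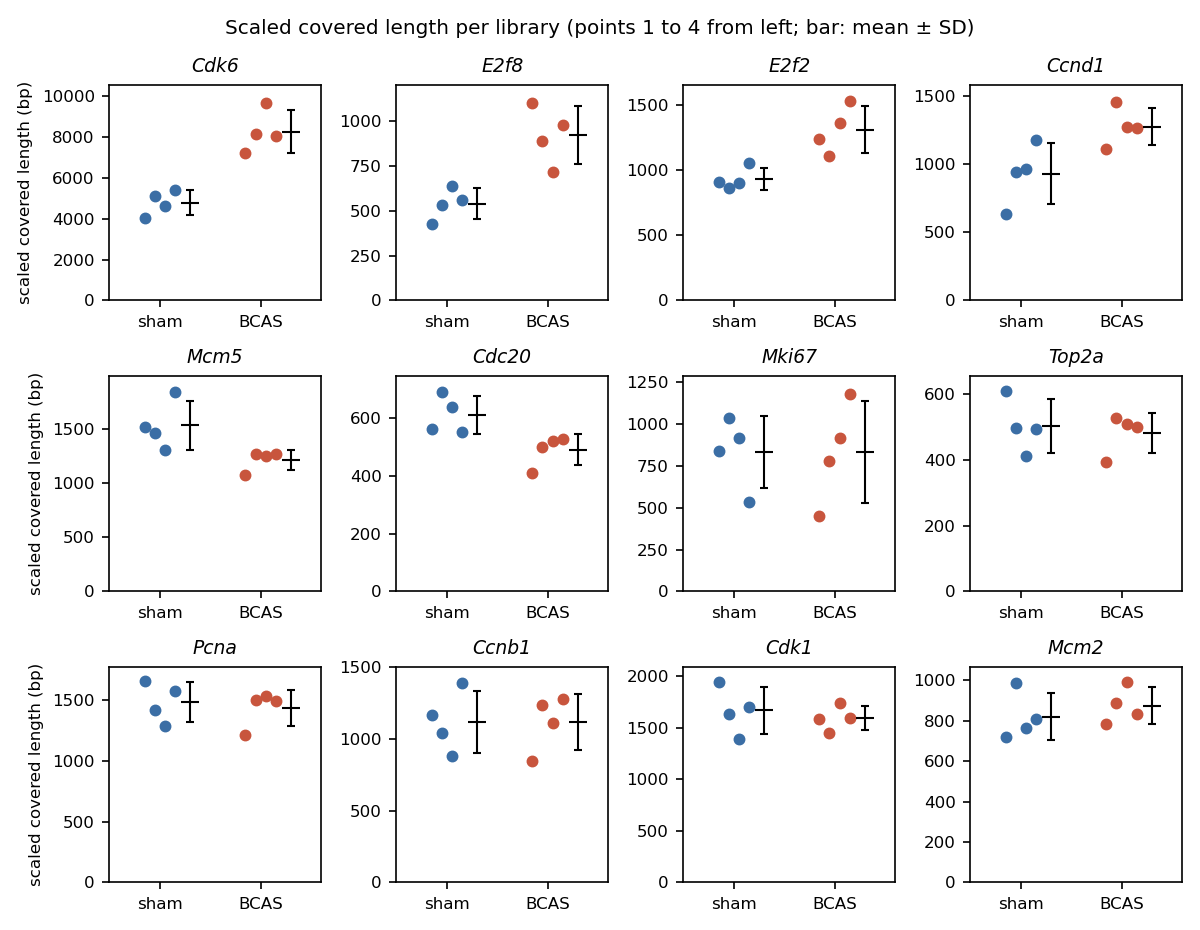
Scaled covered length in bp (vertical axis, from 0) of 12 named loci in 4 sham (blue) and 4 BCAS (red) libraries, with replicates 1 to 4 from left to right and bars for mean ± SD. The groups are separate at Cdk6, E2f8 and E2f2 (BCAS above) and at Mcm5 and Cdc20 (BCAS below), and overlap at Ccnd1 and the 6 proliferation markers.

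Over the 40 loci, covered length rose at 2, Cdk6 and E2f8, and fell at 0 (limma, adjusted p under 0.05), where 3.16% of all tested loci rose and 0.376% fell. The 2 are 5.0% of the 40, a share near that background. At an unadjusted p under 0.05, 4 of the 40 were longer in BCAS (Cdk6, E2f8, E2f2 and Ccnd1; 10.6% of all loci) and 1 shorter (Mcm5; 4.39%). All 4 BCAS libraries lay above all 4 sham libraries at 3 loci (Cdk6, E2f8 and E2f2; 6.03% of all loci) and below them at 2 (Mcm5 and Cdc20; 2.47%). The median log2 difference was -0.04 over the 40, with 15 positive and 25 negative, and 0.001 over all tested loci. Without scaling to the library's total, 26 of the 40 were positive with a median of 0.03, against 0.08 over all loci, and calls among all loci split into 222 longer and 1 shorter in place of 538 and 64.

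**Figure D3:**
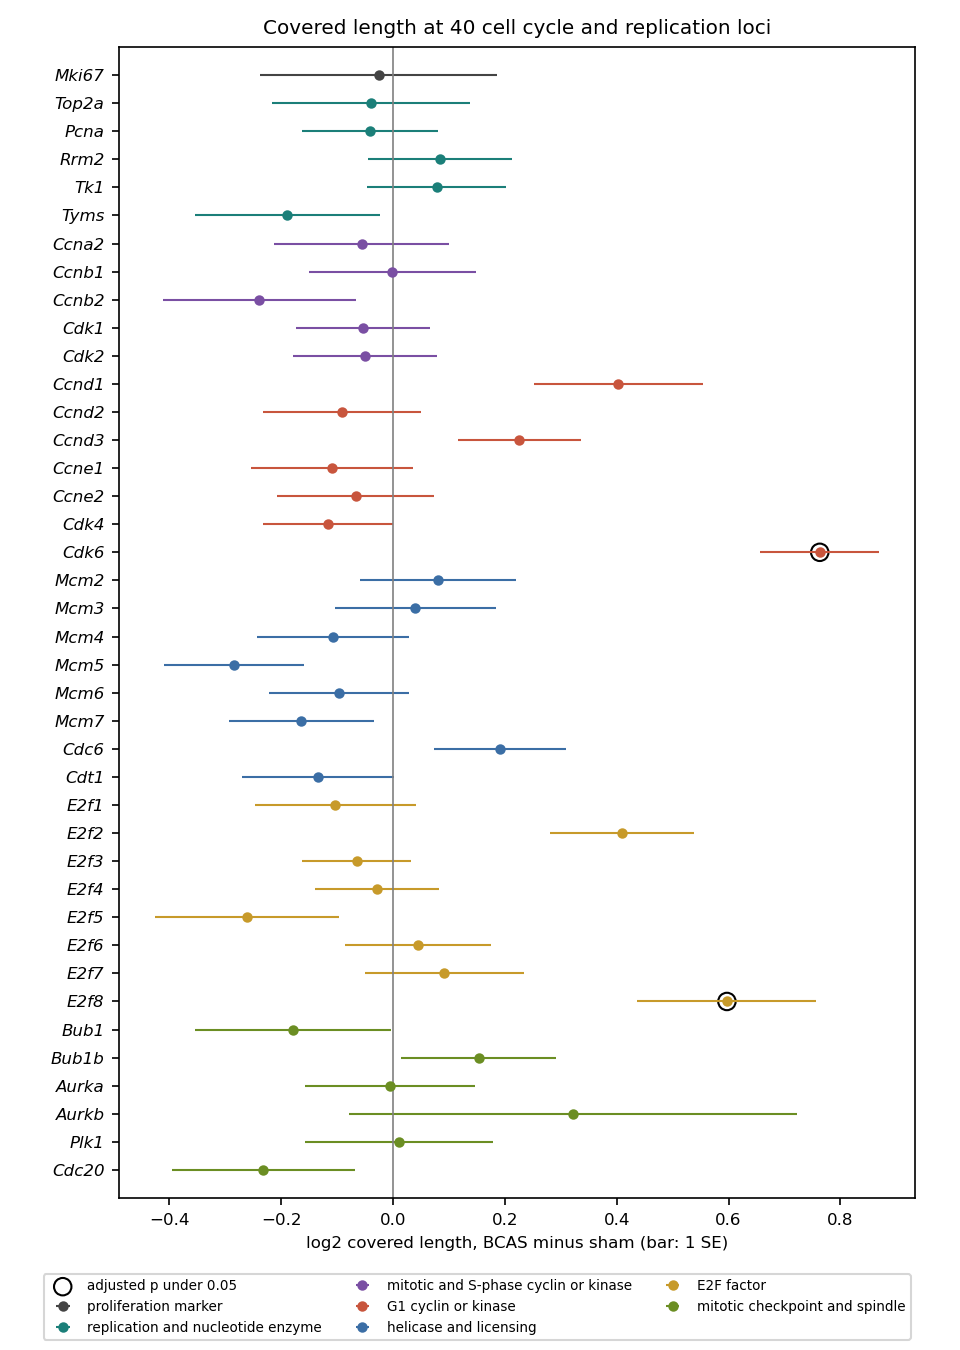
Log2 difference in scaled covered length of BCAS minus sham (horizontal axis; bars are 1 SE of the limma fit, 4 libraries per group) for the 40 loci, colored by role, with rings at the 2 with an adjusted p under 0.05. Cdk6 (0.76) is the highest, followed by E2f8 (0.60), whose bar overlaps that of E2f2, and the other loci lie between -0.285 and 0.41.

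The lengths summed over all 40 loci were 56541, 55399, 52535 and 58014 scaled bp in sham 1 to 4 and 52487, 61027, 63141 and 59604 scaled bp in BCAS 1 to 4. Without Cdk6 the sums were 52512, 50274, 47934 and 52596 in sham and 45271, 52888, 53447 and 51562 in BCAS. Both the lowest and the highest sum were then in BCAS, so the groups overlapped. BCAS 1, the library with the most peaks, had the lowest scaled sum in both cases. Before scaling, its sum over the 40 loci was the highest of all libraries, at 65798 bp.

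Cdk6, which encodes a kinase that D-type cyclins activate in G1, carried the largest increase. Its locus (ENSMUSG00000040274.11, chr5:3341485-3531008, plus strand) had a scaled length of 4029, 5125, 4601 and 5418 bp in sham and 7216, 8139, 9694 and 8042 bp in BCAS. Every BCAS library lay above every sham library. The means were 4793 ± 612 and 8273 ± 1034 bp (SD, n = 4 each), 1.70-fold higher in BCAS on the log2(bp + 200) scale (log2 difference 0.76, SE 0.11, limma adjusted p = 0.00072). The increase passed in every alternative that could be fitted for this locus (22 alternatives, log2 0.64 to 0.85, adjusted p = 9.07e-07 to 0.0391). Before scaling, peaks covered on average 2.38% of the locus in sham and 4.32% in BCAS. Within the higher read GC class the log2 difference was 0.64 (3 sham and 1 BCAS library) and within the lower 0.65 (1 and 3), neither tested alone, and with the class as a covariate it was 0.64 (limma adjusted p = 0.0174).

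The added length at Cdk6 lay mostly in introns. Of 33 regions, where a region is the union of overlapping peaks of all libraries, 6 had a peak in all 8, among them one at 3343695 to 3344721 across a transcript start. In these 6 the scaled length was 3476, 3722, 2825 and 3945 bp in sham and 2940, 3897, 3756 and 3651 bp in BCAS, with means of 3492 ± 484 and 3561 ± 426 bp. In the other 27 regions it was 553, 1404, 1776 and 1473 bp in sham and 4276, 4242, 5938 and 4390 bp in BCAS. Since regions were sorted by the libraries that had a peak, this division is a description and has no test. All 4 BCAS libraries and no sham library had a peak in 3 intronic regions, a further 3 had one in 3 BCAS and no sham library, and 4 more in all BCAS libraries and 1 or 3 sham libraries. Of the regions missing from one group, 16 had peaks in BCAS only and 1 in sham only, and 9 of the 33 had a peak in 1 library only. Since the locus was singled out for its longer length in BCAS, more regions with peaks in BCAS only follow from that choice.

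**Figure D4:**
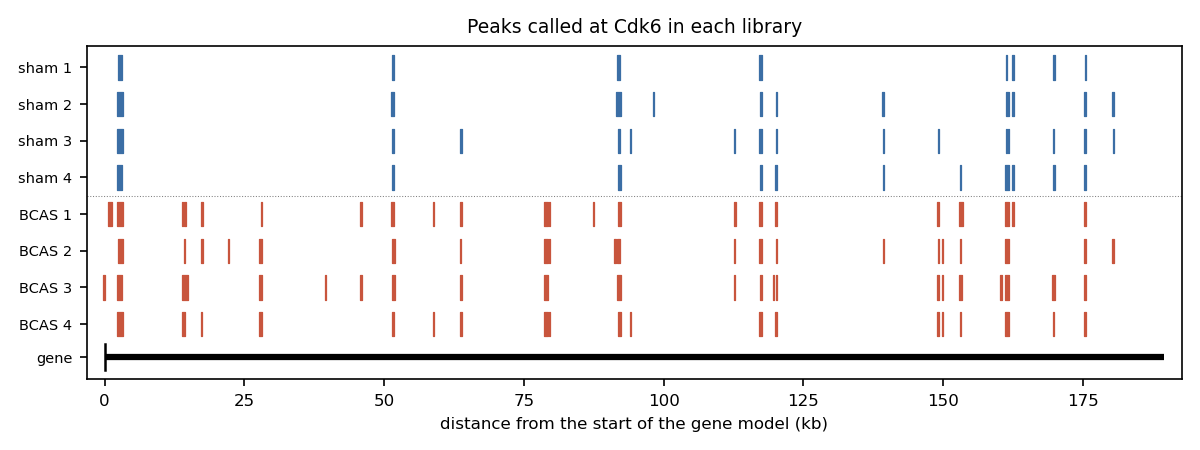
Peaks called at Cdk6 in each of 4 sham (blue) and 4 BCAS (red) libraries along the distance from the start of the gene model (horizontal axis, kb; black bar, gene body). Peaks near 14, 28 and 79 kb appear in all 4 BCAS libraries and in no sham library, while those near 3, 52, 92, 117, 161 and 175 kb appear in all 8.

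The DNA of 4 regions called in every BCAS and no sham library is printed here, because they hold part of the called increases at Cdk6 and E2f8. The remaining such region, in an exon of Ccnd1, is described further below and is not printed. Each line gives 200 bases of the plus strand of mm10 around the median summit of the 4 BCAS peaks, namely chr5:3355475-3355674, chr5:3369423-3369622 and chr5:3420191-3420390 in introns of Cdk6 and chr7:48882359-48882558 upstream of E2f8. Capitals mark the same letters as in the promoters above.
Cdk6 intron, region A: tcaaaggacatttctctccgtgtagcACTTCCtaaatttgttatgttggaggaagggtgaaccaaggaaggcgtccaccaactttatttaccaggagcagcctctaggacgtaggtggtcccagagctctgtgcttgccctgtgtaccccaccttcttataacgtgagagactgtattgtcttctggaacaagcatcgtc
Cdk6 intron, region B: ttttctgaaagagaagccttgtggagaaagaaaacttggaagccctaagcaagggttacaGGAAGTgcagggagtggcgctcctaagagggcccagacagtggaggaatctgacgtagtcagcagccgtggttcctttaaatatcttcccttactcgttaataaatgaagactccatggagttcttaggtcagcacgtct
Cdk6 intron, region C: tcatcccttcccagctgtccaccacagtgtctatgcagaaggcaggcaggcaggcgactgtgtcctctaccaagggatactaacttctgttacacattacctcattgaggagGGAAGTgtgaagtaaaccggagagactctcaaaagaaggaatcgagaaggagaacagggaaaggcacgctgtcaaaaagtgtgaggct
E2f8 upstream region: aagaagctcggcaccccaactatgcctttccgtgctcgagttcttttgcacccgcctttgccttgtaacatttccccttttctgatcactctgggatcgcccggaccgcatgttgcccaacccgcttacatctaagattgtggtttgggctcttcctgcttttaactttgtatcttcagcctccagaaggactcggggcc
Each of the 3 Cdk6 sequences held GGAAGT once, at 71, 37 and 15 bases from the summit. For shares over the genome, 200 bases around each region's midpoint were searched. GGAAGT was there in 16.31% of all 197916 regions and in 43.04% of the 3206 regions called in every BCAS and no sham library. Since the printed stretches are placed by summit and not by midpoint, these shares cannot be set directly beside them. The longer PU.1 form, found around the midpoint in 2.68% and 14.54% of these regions, was in none of the 4 printed sequences, and neither were the E2F, CHR and CCAAT letters. The E2f8 sequence held none of the letters searched. A match says nothing of whether a factor was bound, and a missing match says only that these letters were absent from the window.

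Region A at Cdk6 spanned chr5:3355292-3356374 and was covered over 673, 201, 1083 and 537 bp in BCAS 1 to 4. Region B, chr5:3369127-3369648, was covered over 228, 482, 494 and 482 bp, and region C, chr5:3420091-3420794, over 595, 678, 704 and 633 bp. None of the sham libraries had a peak in these. The summits of the BCAS peaks lay within 24 bp of each other in region B and were spread over 281 and 380 bp in regions A and C.

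E2f8 encodes an atypical E2F factor that represses other E2F targets late in S phase. Its locus (ENSMUSG00000046179.17, chr7:48866429-48881596, minus strand) had a scaled length of 428, 530, 635 and 560 bp in sham and 1101, 885, 716 and 979 bp in BCAS. The lowest BCAS library, BCAS 3, still lay above the highest sham library, sham 3, and the means were 538 ± 86 and 920 ± 162 bp. The log2 difference was 0.60 (SE 0.16, limma adjusted p = 0.0473), close to the threshold, and it did not pass in 17 of 23 alternatives (adjusted p over all 0.0416 to 0.977), among them the read GC class as a covariate (0.66, adjusted p = 0.0961) and the fits without sham 1, 2 or 4 or without BCAS 1, 2 or 4. Within the higher and the lower read GC class the difference was 0.84 and 0.47.

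The difference at E2f8 lay upstream of the gene. In the region at its start that all 8 libraries shared, the scaled length was 428, 530, 433 and 560 bp in sham and 475, 428, 435 and 461 bp in BCAS. A region centred 883 bp upstream (chr7:48882318-48882640) was covered over 287, 244, 270 and 230 bp in BCAS 1 to 4 and had no peak in sham, and a region 118 bp upstream had peaks in sham 3 and in BCAS 1, 2 and 4. With the gene body alone the log2 difference was 0.02 (adjusted p = 0.977), and with the promoter window alone 0.52 (adjusted p = 0.0811, range as above).

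E2f2, an activating E2F factor, did not pass the adjusted test, although its groups did not overlap. The locus (ENSMUSG00000018983.9, chr4:136172394-136196057, plus strand) was at 913, 867, 900 and 1054 bp in sham and 1243, 1109, 1363 and 1532 bp in BCAS. The log2 difference was 0.41 (SE 0.13, limma adjusted p = 0.0961, over 22 alternatives 0.0657 to 0.383). A region centred 233 bp upstream of its start had peaks in BCAS 1, 3 and 4 and in no sham library. The other E2F loci (E2f1, E2f3, E2f4, E2f5, E2f6 and E2f7) lay between -0.26 and 0.09, and none passed. At E2f4, which encodes a mostly repressive E2F factor, an intronic region (chr8:105303460-105303737) was covered over 243, 207, 241 and 255 bp in sham 1 to 4 and over 248 bp in BCAS 1 only, which runs the other way.

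Ccnd1 encodes cyclin D1, a partner of CDK4 and CDK6. Its locus (ENSMUSG00000070348.5, chr7:144929931-144939925, minus strand) was at 635, 945, 965 and 1179 bp in sham and 1115, 1454, 1273 and 1263 bp in BCAS. BCAS 1 lay below sham 4, so the groups overlapped, and the log2 difference was 0.40 (SE 0.15, limma adjusted p = 0.179, over 23 alternatives 0.0787 to 1). It was 0.27 without sham 1, the lowest library there (adjusted p = 0.421), and 0.25 once the GC class of the reads entered the fit (adjusted p = 0.504). An exonic region of Ccnd1 (chr7:144932436-144932701) was covered over 227, 256, 252 and 200 bp in BCAS 1 to 4 and over 0 bp in sham. It held the PU.1 form once, 95 bases from the median summit, with GGAAGT inside that form and again 78 bases from the summit. At Ccnd3, which encodes cyclin D3, an intronic region (chr17:47523233-47523798) was covered over 530, 509, 455 and 365 bp in BCAS and over 261 bp in sham 3 alone, and the locus as a whole did not pass (log2 difference 0.23, SE 0.11, limma adjusted p = 0.350). The remaining D-type cyclin, Ccnd2, gave -0.09, and Cdk4, the second kinase of the D-type cyclins, gave -0.12, with neither passing. Ccne1 and Ccne2, whose products activate CDK2 at the entry to S phase, gave -0.11 and -0.07. With lists of equal length Ccnd2, Cdk4 and Ccne1 turned positive (0.036, 0.020 and 0.031), and without scaling Ccne2 did (0.010).

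**Figure D5:**
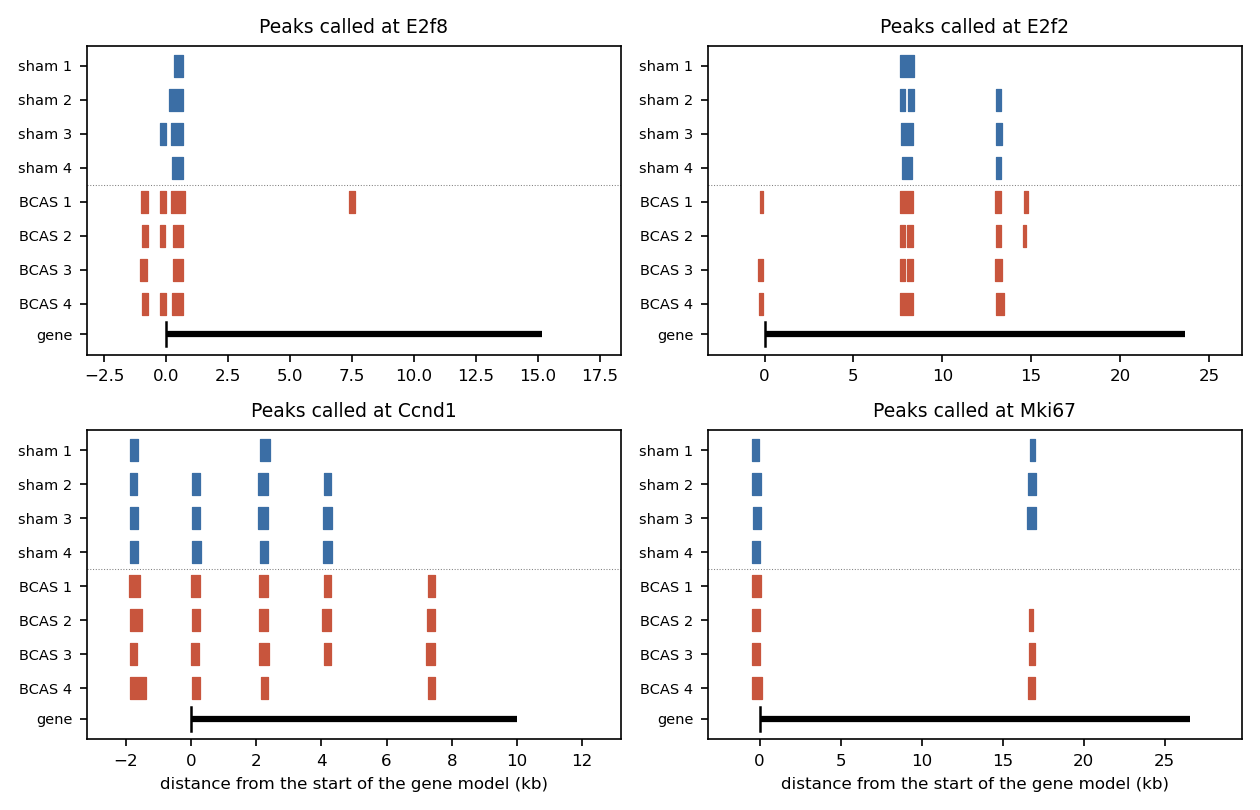
Peaks called at E2f8, E2f2, Ccnd1 and Mki67 in each of 4 sham (blue) and 4 BCAS (red) libraries along the distance from the start of the gene model (horizontal axis, kb; black bar, gene body with a tick at its start). A peak upstream of E2f8 and one near 7 kb in Ccnd1 appear in all 4 BCAS libraries and in no sham library, whereas the promoter peak of Mki67 appears in all 8.

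The helicase and licensing genes, which prepare origins for replication, gave no call. Of 8 loci, 3 were positive and 5 negative, with a median of -0.10, and the same counts were found without scaling (median -0.03). Mcm5 (ENSMUSG00000005410.6, chr8:75109569-75128439, plus strand) was at 1516, 1459, 1303 and 1837 bp in sham and 1074, 1261, 1248 and 1267 bp in BCAS. Every BCAS library lay below every sham library, yet the log2 difference of -0.285 (SE 0.125, limma adjusted p = 0.279) did not pass, and it was negative in all 23 alternatives (-0.42 to -0.19, adjusted p = 0.114 to 1). Both of its regions, at the start and in an intron, had a peak in all 8 libraries. Cdc6, which loads the helicase, was the most positive of this group at 0.19, and Cdt1, its partner in loading, gave -0.13. Mcm3, Mcm4, Mcm6 and Mcm7, the other subunits, gave 0.04, -0.11, -0.10 and -0.16.

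Among the replication and nucleotide enzymes, Rrm2, a subunit of ribonucleotide reductase, and Tk1, thymidine kinase, gave log2 differences of 0.08 each, and Tyms, thymidylate synthase, gave -0.19. A region 3003 bp upstream of Tk1, within introns of the neighboring gene Afmid, was covered over 250, 265, 312 and 316 bp in BCAS 1 to 4 and over 200 bp in sham 1 only. The S-phase and mitotic cyclins and kinases (Ccna2, Ccnb1, Ccnb2, Cdk1 and Cdk2) lay between -0.24 at Ccnb2 and -0.001 at Ccnb1, with no call. This sign rests on the scaling, since without it 4 of the 5 were positive (Ccna2 0.012, Ccnb1 0.074, Cdk1 0.027 and Cdk2 0.031) and with lists of equal length 2 were.

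Regulators of mitosis gave no call either. Cdc20, the activator of the anaphase-promoting complex (ENSMUSG00000006398.15, chr4:118432901-118437352, minus strand), was at 564, 692, 638 and 553 bp in sham and 412, 502, 523 and 528 bp in BCAS, and sham 4 lay only just above BCAS 4. The log2 difference was -0.23 (SE 0.16, limma adjusted p = 0.594) and turned positive with lists of equal length (0.05). Its promoter had a peak in all 8 libraries, and an intronic region had one in sham 2 and 3 only. Aurkb was at 0, 193, 224 and 250 bp in sham and 212, 503, 433 and 0 bp in BCAS (0.32, SE 0.40, limma adjusted p = 0.827). Bub1 and Bub1b, kinases of the spindle checkpoint, gave -0.18 and 0.15, Aurka, a kinase of the spindle poles, gave -0.005, and Plk1, polo-like kinase, gave 0.01.

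Counted by regions, the 40 loci held 180, of which 79 (43.89%) had a peak in all 8 libraries, against 36.23% of 197916 regions of the genome. Regions at starts of genes were shared most, with 46 of 51 in all 8 (90.2%), compared with 4 of 17 in exons, 22 of 89 in introns and 7 of 23 between genes. All BCAS libraries and none of the sham libraries had a peak in 5 of the 180, 3 at Cdk6 and 1 each at E2f8 and Ccnd1, where 1.62% of all regions were so called. The reverse, a peak in all sham and in none of the BCAS libraries, was found in 0, where 0.0945% of all regions were. With a rule of 3 or 4 libraries of one group and none of the other, the counts were 10 and 0, where 3.28% and 0.592% of all regions met it, the 5 more being 3 at Cdk6 and 1 each at E2f2 and E2f3. Single regions were not tested here, and for the presence of a peak alone 4 against 4 libraries allow no smaller exact two-sided p than 0.0286.

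Promoter windows alone, the 1 kb on each side of the start of the gene model, were tested for 35 of the 40 genes. Of these 0 rose and 0 fell (limma, adjusted p under 0.05), where 0.806% of 13525 windows rose and 0.0222% fell, and 1 and 0 had an unadjusted p under 0.05, namely E2f8. The median was -0.04 over the 35 and -0.03 over all windows. Cdk6, E2f2, Aurkb, Tk1 and Ccnd2 had too little coverage in their windows to be tested.

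A further 116 cell cycle genes, among them origin recognition proteins, polymerase subunits, kinesins and condensins, were tested beside the 40. Of these, 1 rose (0.86%) and 1 fell (limma, adjusted p under 0.05), where 3.16% of all tested loci rose and 0.376% fell. There were 62 positive and 54 negative, with a median of 0.03. Both encode condensin subunits, which compact mitotic chromosomes. Ncaph was at 890, 772, 1268 and 941 bp in sham and 1355, 2249, 1819 and 1853 bp in BCAS (log2 difference 0.79, SE 0.155, limma adjusted p = 0.00784). Ncapg was at 1480, 1565, 1421 and 1677 bp in sham and 910, 1067, 973 and 949 bp in BCAS (-0.56, SE 0.12, limma adjusted p = 0.0113). The groups were apart at both loci, in opposite directions. At an unadjusted p under 0.05 (limma), 12 of the 116 were longer and 4 shorter, near the shares of all loci (10.6% and 4.39%).

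Marker loci of microglia, endothelial cells and lymphocytes were longer in BCAS in sum, with no overlap between the groups. How often sums over other sets of loci separate in this way was not tested. Of 16 microglial loci, 3 rose (Itgam, Gpr34 and Trem2; 18.75%, where 3.16% of all tested loci rose), 15 were positive, and the median was 0.19. Their summed length was 26054 to 32747 scaled bp in sham and 33541 to 36684 in BCAS. Of 8 endothelial markers 0 rose (3 at an unadjusted p under 0.05, limma, where 10.6% of all tested loci were longer). Their median was 0.21, with sums of 14963 to 18828 in sham and 20119 to 22492 in BCAS. Of the 2 lymphocyte markers tested 0 rose (2 at an unadjusted p under 0.05, limma), and the other 6 had too little coverage to be tested. The sums over the 8 listed were 970 to 1716 in sham and 2564 to 2716 in BCAS. Of 6 markers of oligodendrocyte precursors 0 rose and 0 fell (1 and 0 at an unadjusted p under 0.05, limma), with a median of -0.07 and sums of 7824 to 10312 and 8363 to 10508. The part of these cell types in the changes at Cdk6 and E2f8 was not tested.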

How the data were processed

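Peaks of 8 ATAC-seq libraries, 4 sham and 4 BCAS, were used as deposited. The authors used Trim Galore for trimming, Bowtie2 2.3.4.3 for alignment to mm10, SAMtools 1.9 for the alignment files and MACS2 for peaks of every single library. The options of MACS2, and whether reads were shifted for Tn5, were not given in the sources used here. Each deposited peak has the authors' integer score, their fold enrichment (a ratio over local background), a -log10 p, a -log10 q, and a summit position. The authors' score and -log10 p were not used, the fold ranked peaks within a library, and -log10 q set a stricter list.

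Members and lists were chosen with earlier results of these data known. Loci were GENCODE vM21 (basic) genes with 3 kb on each side. Covered bp were scaled to the library's total, 200 bp were added, and loci averaging 200 bp or more were compared on the log2 scale by limma 3.58.1 (R 4.3.3), with a trend of the variance and Benjamini-Hochberg adjustment over all 17035 loci. Peaks overlapping by 1 bp or more were merged into regions. Python 3.11.15 with pandas 2.3.3 and numpy 2.4.6 handled the lists, and plots drawn with matplotlib 3.10.9. The fit was tested on simulated data. Values per library were given for Mki67, Top2a, Pcna, Ccnb1, Cdk1 and Mcm2, for members with an adjusted p under 0.05, with groups that did not overlap, or with a region called in every library of one group and none of the other, and for other cell cycle genes with an adjusted p under 0.05. Other members or regions were given with values after these had been seen. Labels do not say that a replicate number is shared by mice. After the group mean was subtracted at each locus, the deviations of same-numbered sham and BCAS libraries correlated at -0.16, -0.01, -0.10 and 0.14. The numbers were therefore not taken as pairs.

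Alternatives were a -log10 q of at least 5, lists of 107391 peaks each, no minimum of coverage, a pseudocount of 50 or 1000 bp, other scalings, gene bodies or promoter windows alone, loci without neighboring genes, peak number or read GC class as a covariate, a replicate block, no variance trend, leaving out each library and, added after the data had been seen, leaving out both sham 1 and BCAS 1. For regions, peaks had to cover most of a region, or 3 libraries of one group sufficed.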

Additional observations from a re-analysis of the deposited data

Results flagged for a closer look

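Each group of 4 libraries at each of the 40 loci was searched for a library far from the other 3, that is, for a gap to its nearest neighbor above Dixon's critical share of the group's range. Of 80 groups 3 were so found, where chance gives about 1 in 20. At E2f5, sham 4 had 1780 scaled bp and the other sham libraries 960 to 1017 bp, and sham 4 alone had a further intronic peak of 448 bp there. At Pcna, BCAS 1 had 1214 scaled bp against 1492 to 1538 bp in the other BCAS libraries. At Mcm5, BCAS 1 had 1074 scaled bp against 1248 to 1267 bp. Before scaling, BCAS 1 had 1522 bp at Pcna, against 1381 to 1477 bp in the other BCAS libraries. At Mcm5 it had 1346 bp, against 1173 to 1236 bp. Both values were thus low only after scaling to the library's total. BCAS 1 was the library with the most peaks, and the part of this in the low values was not tested.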

How the results depend on the processing

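The increase at Cdk6 kept its direction and passed in all 22 alternatives that could be fitted (log2 0.64 to 0.85), and its promoter window alone had too little coverage to be tested. Of the 40 loci, 2 rose, and the count was 1 (Cdk6) with lists of equal length, no scaling, median-ratio scaling, a pseudocount of 50 bp, no minimum, gene bodies alone, the number of peaks or the read GC class as a covariate, and without both sham 1 and BCAS 1, and it was 0 with promoter windows alone. With the stricter -log10 q it was 3, the further locus being Cdc6. Leaving out single libraries gave 1 to 2. E2f8 was the locus lost in these, and the cause was not tested. The count that fell was 0 in all 23 alternatives. With a replicate block, which the numbers do not warrant, 1 of the 40 rose (Cdk6, 0.76, adjusted p = 9.07e-07) and E2f8 did not pass (adjusted p = 0.0535, over its alternatives 0.0416 to 0.977), while over all loci 778 rose and 160 fell in place of 538 and 64, and 245 rose and 8 fell where read GC class was a covariate, 222 and 1 without scaling, 347 and 24 with median-ratio scaling, 330 and 15 without a variance trend, and 109 and 3 with promoter windows. Over all loci, leaving out single libraries gave 284 to 666 and 25 to 90.

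Loci whose difference was near 0 changed sign without passing in any setting. With lists of equal length the values were 0.21 at Mki67, 0.006 at Top2a, 0.014 at Pcna, 0.052 at Ccnb1 and 0.045 at Cdc20. Without scaling they were 0.029 at Mki67, 0.024 at Top2a, 0.037 at Pcna, 0.074 at Ccnb1 and 0.027 at Cdk1. With the number of peaks as a covariate they were 0.031, 0.026, 0.025 and 0.099 at Mki67, Top2a, Pcna and Ccnb1, and with the stricter -log10 q they were 0.182 at Mki67 and 0.015 at Ccnb1. Gene bodies alone gave 0.049 at Cdk1, and promoter windows gave 0.049 at Mki67 and 0.103 at Cdk1. Without both sham 1 and BCAS 1, Mki67, Top2a, Pcna, Ccnb1 and Cdk1 gave 0.191, 0.097, 0.075, 0.125 and 0.016. Leaving out single libraries gave -0.184 to 0.177 at Mki67, -0.102 to 0.031 at Top2a, -0.098 to 0.027 at Pcna, -0.093 to 0.104 at Ccnb1 and -0.127 to 0.016 at Cdk1.

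Regions in every BCAS and no sham library numbered 4 to 7 under the other rules and 10 where 3 libraries sufficed, against 5 of 180 in the main count. Where the peak lists or libraries differed, regions were merged anew, so their total can differ from 180. Leaving out single libraries gave 5 to 8, with 8 without sham 3 or without BCAS 3. Regions in every sham and no BCAS library numbered 0, and 1, the intron of E2f4, with lists of equal length, without BCAS 1, and without both sham 1 and BCAS 1 (0 to 1 over single libraries). Peak lists hold no counts, so a peak just under the authors' threshold cannot be told from none.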
